A study of Mus musculus with 25 samples.

Results

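The genes described here encode chemokines, interleukins, their receptors and a few related cytokines, followed in the lungs of C57BL/6 mice, an inbred laboratory strain, over 96 h of calorie restriction (CR). They were taken from the Affymetrix MG-U74Av2 array as every probe set whose single annotated gene symbol began with Ccl, Ccr, Cxcl, Cxcr or Il and a digit, together with Csf1, Csf2, Csf3, Tnf, Ifng, Cx3cl1 and Cx3cr1. The rule gave 102 of the 12488 probe sets. Of these, 2 were control probe sets of the array and were left out, which left 100 probe sets for 87 genes. A probe set was tested when its signal reached the median of its own array on at least 2 of the 24 arrays. This held for 43 of the 100 probe sets, for 38 genes, among 7440 tested on the whole array. The other 57 are described further below by their values, and 54 of them reached the array median on no array.

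Chemokines are small secreted proteins that guide leukocytes along gradients through G protein-coupled receptors, and they fall into CC, CXC and CX3C classes by the spacing of their first cysteines. Interleukins and colony-stimulating factors act through receptors built from several chains, many of which signal through JAK kinases and STAT factors. In the mouse lung, CCR2 carries inflammatory monocytes out of the bone marrow toward CCL2, epithelial CXCL5 attracts neutrophils, and the alpha chain of the IL-4 receptor serves both IL-4 and IL-13.

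CR meant that food was reduced by 2/3, and lungs were taken after 2, 4, 12, 24, 48, 72 or 96 h with 2 arrays each. Control lungs were those of fed mice, with 4 arrays at 0 h and pairs of arrays at each of 2, 4 and 12 h. The label text of the controls calls the mice always fed but also carries the wording of the reduction, which leaves some doubt; here they count as unrestricted. Whether arrays lettered a and b were separate mice or repeat arrays of 1 RNA is not given, so p-values may measure only technical spread. Values are scaled signals of whole lung RNA, in which fewer cells of a type and less RNA per cell cannot be told apart. Signals of different probe sets do not share a scale, so levels were compared only within a probe set. The exceptions are sums over the markers of a cell type, in which bright probe sets weigh most.

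Across probe sets, the a and b arrays correlated with r of 0.94 to 0.976. The fed 0 h arrays numbered 1 and 2 stood apart from each other: 39.9% of all tested probe sets differed between them in limma with Benjamini-Hochberg adjustment. Of the 43 members, 17 did, 10 higher and 7 lower in number 1, a share close to that of all probe sets. The arrays also fell into 2 ranges by their highest deposited signal, which was 74440 to 99040 on the arrays of number 1, CR 2, 12, 24 and 48 h and fed 12 h (high range), and 31600 to 54310 on those of number 2, CR 4, 72 and 96 h and fed 2 and 4 h (low range). The labels give no value for the batch of the arrays. The 3' to 5' signal ratio of the Gapdh control probes, a sign of RNA quality, was 1.21 to 2.15 in CR lungs of 24 h and later, 1.76 to 2.02 in fed 0 h lungs and 1.01 to 1.66 in fed 2 to 12 h lungs. Its part in the results was not tested. In the high range 46% of all tested probe sets differed between CR 24 and 48 h and fed 0 h number 1, and in the low range 10.7% between CR 72 and 96 h and number 2. Over fed 12 h in the high range the share was 5.54%, and over fed 2 and 4 h in the low range 12.7%. Of the 43 members, 18 and 9 were called in these comparisons over fed 0 h, and 4 and 7 in those over fed 2 to 12 h. Over fed 0 h, 5 member probe sets were called with opposite signs in the high and the low range (Ccl9, Cxcl12 on 100112_at, Cxcl14, Cxcr4 and Il1rn), so their pooled changes average opposing values. The share of all probe sets with such opposite signs was not computed, so this count shows nothing particular to the members. For members called late, values within the ranges stand beside the pooled ones. In late CR the range goes with the CR time, and in the controls with the fed 0 h number or the hour. A difference between the ranges therefore cannot be told apart from one between these times or controls.

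In the mean of 24 to 96 h of CR, the lung held less mRNA of the monocyte chemokine receptor Ccr2 and of the granulocyte growth factor Csf3, and more of the receptor chains Il4ra and Il6ra, than in either set of fed lungs, though not at each time: Ccr2 at 24 h and Csf3 at 72 h were inside the range of the fed arrays. The epithelial neutrophil attractant Cxcl5 was higher than in fed lungs of 2 to 12 h. In the mean of CR 24, 48, 72 and 96 h (late CR) over fed 0 h, 3 of 43 members rose (Il4ra, Il6ra and Il6st) and 3 fell (Ccr2, Csf3 and Cxcl12). On the whole array 9.85% of probe sets rose and 8.24% fell, so the members' share was no larger than the background. Over fed 2, 4 and 12 h, 4 members rose (Cxcl5, Il4ra, Il6ra and Il18r1) and 5 fell (Ccr2, Csf3, Ccl5, Cxcl14 and Il17ra), beside a background of 3.62% higher and 2.73% lower. The median log2 change of the 43 members was -0.09 over fed 0 h and -0.17 over fed 2, 4 and 12 h, against 0 and 0.02 for all 7440 probe sets. Both comparisons share the late CR arrays. Over fed 2, 4 and 12 h, the calls of Ccl5, Cxcl14, Csf3 and Il17ra were close to the threshold: over 36 alternative settings and left-out arrays they passed it in 11, 15, 14 and 13. Il18r1 passed it in 22, against 36 for Cxcl5, 34 for Ccr2 and 35 each for Il4ra and Il6ra. Cxcl5, however, reached the median of its array only on late CR arrays, so it was tested only through them.

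**Figure D1:**
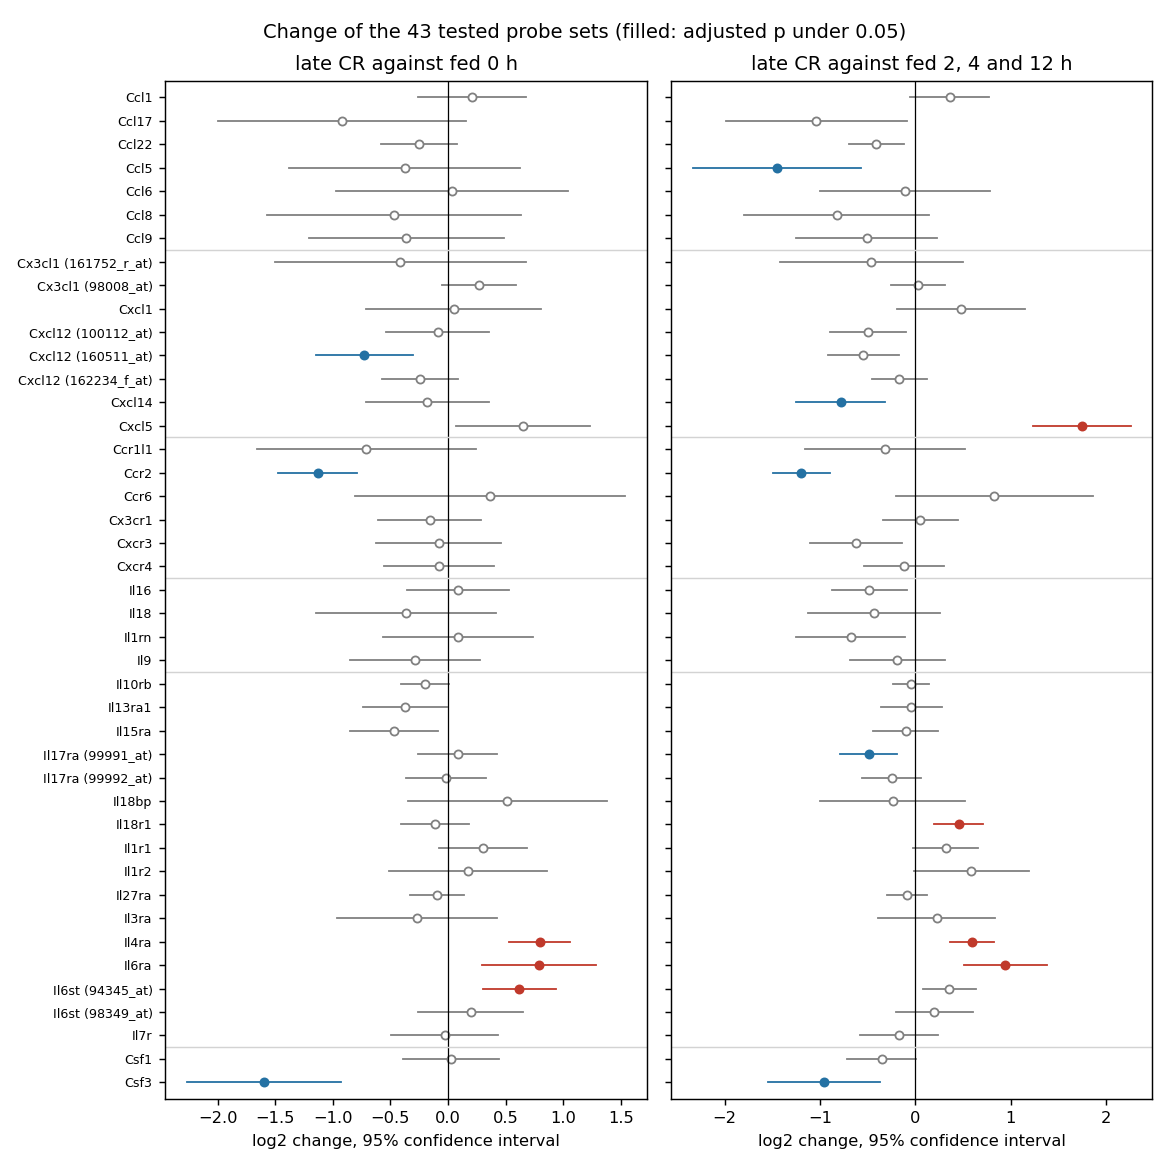
Log2 change of late CR (mean of 24, 48, 72 and 96 h) over fed 0 h (left) and over fed 2, 4 and 12 h (right) for the 43 tested probe sets, in blocks by role, with 95% confidence intervals; filled points passed an adjusted p under 0.05, red higher and blue lower. Ccr2 and Csf3 lie left of 0 and Il4ra and Il6ra right of 0 in both panels, while Cxcl5 is filled only on the right.

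Among the chemokine receptors, Ccr2 was the member with the smallest p in both late comparisons. Its signal was 547 and 474 at CR 24 h, 376 and 314 at CR 48 h, 330.1 and 297 at CR 72 h and 275 and 209 at CR 96 h. Fed 0 h lungs had 962 and 977 on the arrays numbered 1 and 559 and 577 on those numbered 2. All 8 late CR arrays lay below all 4 fed 0 h arrays. The mean fell to 353 ± 110.0 in late CR (SD, n = 8), against 769 ± 232 in fed 0 h lungs (SD, n = 4), a log2 change of -1.13 (95% confidence interval -1.48 to -0.79, limma adjusted p = 0.000154), or 2.19-fold lower. The change over fed 2, 4 and 12 h was -1.20 log2 (-1.50 to -0.89, adjusted p = 2.62e-05). CR 24 and 48 h differed from fed 0 h number 1, of the same high range, by -1.21 log2. CR 72 and 96 h differed from number 2, of the same low range, by -1.05 log2, and both passed the threshold. Over the fed 2 to 12 h controls the values were unlike: CR 24 and 48 h differed from fed 12 h by -0.13 log2 (adjusted p = 0.727), and CR 72 and 96 h from fed 2 and 4 h by -1.88 log2 (adjusted p = 1.33e-08). Here range, CR time and control hour all differ and cannot be told apart.

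The lower Ccr2 signal was not confined to long restriction. At 12 h the signal was 413 and 494 in CR lungs and 441 and 476 in fed lungs, while at 2 h it was 980.1 and 795 in CR lungs and 983 and 806 in fed lungs, and at 4 h it was 910.3 and 1009 in CR lungs and 1153 and 1127 in fed lungs. The 12 h lungs of both diets thus lay below all lungs of 2 and 4 h, and CR and fed values overlapped at 12 h. Fed 12 h over fed 0 h gave -0.70 log2 (adjusted p = 0.122). Against fed 12 h alone, late CR differed by -0.44 log2 and Ccr2 was not called. From CR 48 h on, every CR array was below every fed array of the series.

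Ccr2 also marks a cell type, so the other markers of monocytes and macrophages are given beside it. The 8 others that were tested summed to 28580 to 57110 in late CR, 25070 to 59090 in fed 0 h and 39800 to 57660 in fed 2 to 12 h lungs. The brightest of them, Lyz2 and Chil3, averaged 18450 ± 981 and 11390 ± 9400 in late CR (SD, n = 8), and Adgre1 averaged 184. The sum therefore follows the bright genes more than the dim ones. None of the 8 was called over fed 0 h. Over fed 2, 4 and 12 h, Cd68 and Ctss fell, by 0.73 and 0.82 on the log2 scale. Among CR times the sum was lowest at 24 and 48 h (28580 to 33230), and it was 52340 to 57110 at CR 72 and 96 h, where Ccr2 was at its lowest. The fed 0 h arrays numbered 2 had 25070 and 34410. Itgam and Marco were too dim to be tested, and Itgam lay below the signal floor of 80.4 on 18 of 24 arrays. The part of these cells in the Ccr2 result was not tested.

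**Figure D2:**
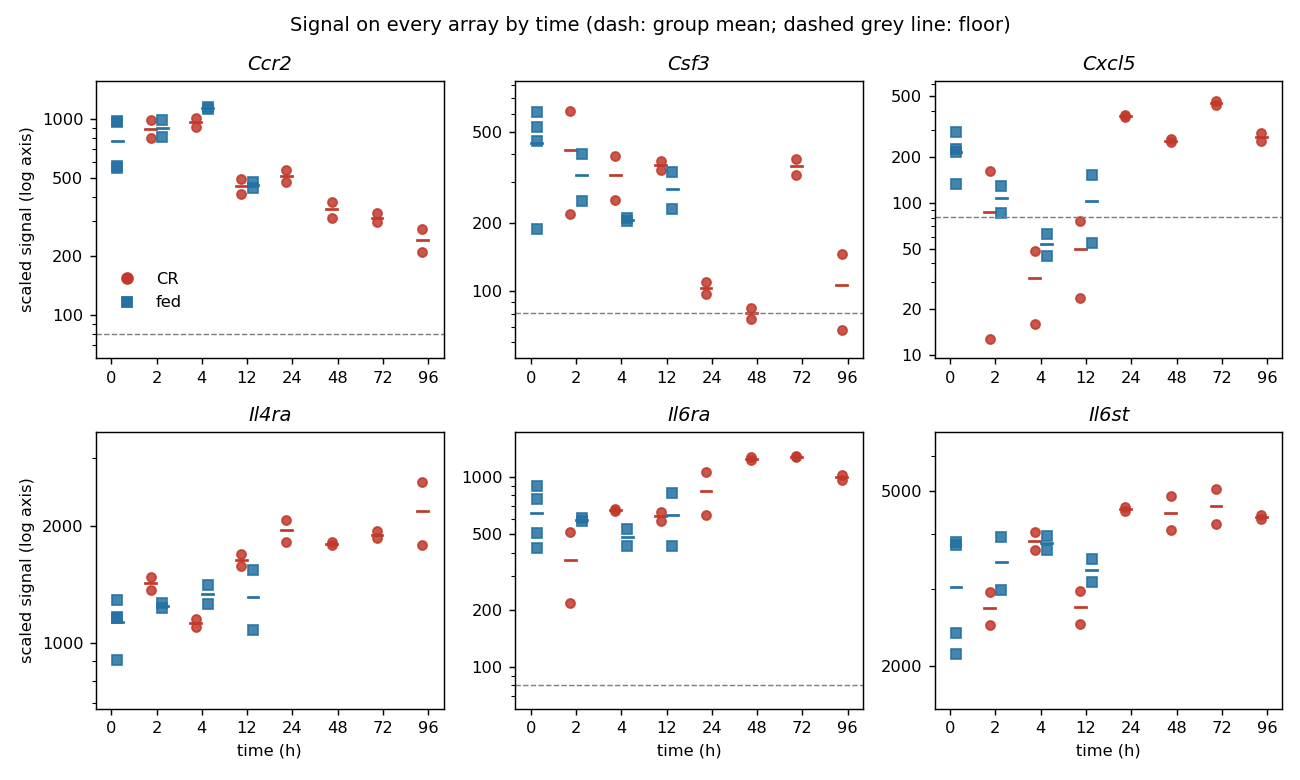
Scaled signal (log axis) against time in h on every array for 6 members, with CR arrays as red circles left of fed arrays as blue squares, short bars at group means, and the floor of 80.4 as a dashed grey line where the panel reaches near it. Ccr2 reaches its lowest values at 96 h, and Csf3 is low at 24, 48 and 96 h but not at 72 h. The CR arrays of Il4ra lie above all fed arrays from 12 h on.

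The other tested chemokine receptors were not called in late CR over either set of controls. Cxcr4, the receptor of CXCL12, was 419 to 650 in late CR (median 518) and 747, 969.6, 325 and 397 in fed 0 h lungs, so the late CR values lay inside the fed range. Its log2 changes were -0.08 over fed 0 h and -0.12 over fed 2, 4 and 12 h. Within the ranges its change over fed 0 h was -0.79 log2 in the high range and 0.64 log2 in the low range, both past the threshold (adjusted p = 0.00297 and 0.046). Cx3cr1, the fractalkine receptor of patrolling monocytes, gave -0.16 and 0.05. Cxcr3, which effector T cells use to follow interferon-induced chemokines, gave -0.08 and -0.63 (adjusted p = 0.121 for the second). Ccr1l1 and Ccr6 varied widely between arrays, with 95% confidence intervals of -1.66 to 0.24 and -0.81 to 1.54 log2 over fed 0 h. Ccr1, Ccr4 and Cxcr2, the neutrophil receptor for CXCL5, were among those too dim to be tested.

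Among the chemokines, Cxcl5 was 369 and 376 at CR 24 h, 264 and 249 at CR 48 h, 437 and 468 at CR 72 h and 253 and 288 at CR 96 h. It was 293, 225, 216 and 134 in fed 0 h lungs. In fed lungs of 2, 4 and 12 h it ranged between 44.7 and 153 with a median of 74.4. The 8 late CR arrays thus lay above all 6 fed arrays of 2 to 12 h, but only 4 of 8 lay above all fed 0 h arrays. Over fed 2, 4 and 12 h the log2 change was 1.75 (1.23 to 2.26, adjusted p = 0.000139), or 3.36-fold (2.35 to 4.79), with 3 of the 6 fed arrays raised to the floor. Over fed 0 h it was 0.65 (0.07 to 1.24, adjusted p = 0.103). In CR lungs of 2 to 12 h Cxcl5 was between 12.7 and 161, with 5 of 6 arrays under the floor. Within the signal ranges it was 1.48 log2 over fed 12 h and 1.92 log2 over fed 2 and 4 h, both past the threshold. The changes over fed 0 h were 0.27 and 1.04 log2 in the high and low range and not called. Cxcl5 reached the array median on 4 arrays, those of CR 24 and 72 h. It thus entered the test only through late CR arrays, where it was high. Its call over fed 2, 4 and 12 h is therefore not independent of the filter, though it was also called with the filter left out.

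Ccl5, a T cell and monocyte attractant that activated T cells and NK cells make, had signals of 187 to 594 in late CR, with a median of 420 (8 arrays). It was 1283, 902, 54.2 and 718 in fed 0 h lungs and 944 to 1371 in fed 2 to 12 h lungs (median 1044). All late CR arrays lay below the 6 fed arrays of 2 to 12 h and inside the range of fed 0 h. The log2 changes were -1.45 over fed 2, 4 and 12 h (-2.34 to -0.57, adjusted p = 0.0465) and -0.38 over fed 0 h (adjusted p = 0.598). Against fed 0 h number 1 alone the change was -1.46 and called, and against number 2 alone it was 0.71 and not called. Within the signal ranges Ccl5 was not called over fed 12 h (-1.64 log2, adjusted p = 0.0648) or over fed 2 and 4 h (-1.24 log2, adjusted p = 0.0544). Over fed 0 h it was -1.70 log2 in the high range and called, and 0.95 log2 in the low range and not called. Of the 3 tested markers of NK and cytotoxic T cells, Gzma and Gzmb also fell over fed 2, 4 and 12 h (adjusted p = 0.00549 and 0.0109), while Klrd1 gave -0.52 (adjusted p = 0.272). All 3 fell over fed 0 h, where Ccl5 was not called. Their summed signal was 305 to 710.4 in late CR, 569 to 1574 in fed 0 h and 705 to 1160 in fed 2 to 12 h lungs. The 4 tested T cell markers summed to 693 to 1226 in late CR, 684 to 1430 in fed 0 h and 1231 to 1761 in fed 2 to 12 h lungs. Of them, 3 fell over fed 2, 4 and 12 h, while Cd3g, Cd3e and Cd8a were among the T cell markers too dim to be tested. Their part in the Ccl5 result was not tested.

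Cxcl14, an epithelial and stromal chemokine, had 329 to 1512 in late CR (median 964), 521 to 1592 in fed 0 h and 1209 to 1640 in fed 2 to 12 h lungs (median 1499). It fell over fed 2, 4 and 12 h by 0.78 on the log2 scale (adjusted p = 0.0426), with 7 of 8 late CR arrays below all 6 controls, and differed by -0.18 over fed 0 h (adjusted p = 0.641). Within the signal ranges its changes over fed 0 h had opposite signs, -1.33 log2 in the high range and 0.97 log2 in the low range, both past the threshold. Over fed 12 h it was -1.11 log2 and called, and over fed 2 and 4 h -0.38 log2 and not called.

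Cxcl12, which holds CXCR4-bearing cells in tissue, was measured by 3 tested probe sets that disagreed in the pooled comparison with fed 0 h. Probe set 160511_at was 175 to 431 in late CR (median 308) and 630, 447, 418 and 444 in fed 0 h lungs. It fell over fed 0 h by 0.72 on the log2 scale (adjusted p = 0.0201), with 7 of 8 late CR arrays below all controls, while 100112_at and 162234_f_at gave -0.09 and -0.24 and were not called. Within the signal ranges 100112_at also had opposite signs over fed 0 h, 0.72 log2 in the high and -0.91 log2 in the low range, both past the threshold, whereas 160511_at gave -0.94 and -0.51 log2 (adjusted p = 0.00887 and 0.269). Probe set 162234_f_at gave 0.23 and -0.715 log2 (adjusted p = 0.351 and 0.0222), so all 3 were lower in the low range. Over fed 2, 4 and 12 h 160511_at gave -0.55 log2 (adjusted p = 0.0789), and it was called in neither range over these controls. Probe set 100112_at gave -0.88 log2 over fed 2 and 4 h in the low range (adjusted p = 0.000163). Over fed 12 h in the high range it gave 0.08 log2 (adjusted p = 0.864).

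The remaining tested chemokines were not called in the pooled late comparisons. Ccl22, which dendritic cells and macrophages make, gave -0.25 over fed 0 h and -0.41 over fed 2, 4 and 12 h (adjusted p = 0.0857 for the second). Ccl9, a myeloid attractant of the mouse, gave -0.36 and -0.51. Its pooled change over fed 0 h combined -2.10 log2 in the high range and 1.37 log2 in the low range, both past the threshold (adjusted p = 4.24e-06 and 0.00198). Fractalkine, Cx3cl1, gave 0.27 and 0.03 on probe set 98008_at. Cxcl1, a neutrophil attractant, was 35.1 to 378 in late CR, 110.2 to 353 in fed 0 h and 22.9 to 169 in fed 2 to 12 h lungs, and gave 0.05 and 0.48. The pooled intervals of these members all held 0 except that of Ccl22 over fed 2, 4 and 12 h (-0.70 to -0.12). Ccl17, named after its values were seen, gave -1.04 log2 over the same controls (-1.985 to -0.089, limma adjusted p = 0.193). Over fed 0 h it was -2.01 log2 in the high range (adjusted p = 0.00485) and 0.17 log2 in the low range (adjusted p = 0.875).

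Among the interleukin receptors, Il4ra was 2081 and 1828 at CR 24 h, 1793 and 1819 at CR 48 h, 1863 and 1947 at CR 72 h and 1786 and 2599 at CR 96 h. On this probe set, 102021_at, it was 1162, 1171, 904 and 1293 in fed 0 h lungs, and 1081 to 1547 with a median of 1265 in fed 2 to 12 h lungs. At CR 12 h it was 1585 and 1700, already above all fed arrays. All 8 late CR arrays lay above all 10 fed arrays. The mean rose to 1964 ± 275 in late CR (SD, n = 8), against 1133 ± 164 in fed 0 h lungs (SD, n = 4), a log2 change of 0.80 (0.53 to 1.06, limma adjusted p = 0.000436) or 1.74-fold. The change over fed 2, 4 and 12 h was 0.59 log2 (0.36 to 0.83, adjusted p = 0.00244). Over fed 0 h of the same signal range it was 0.69 log2 at CR 24 and 48 h and 0.91 log2 at CR 72 and 96 h, both past the threshold. Over fed 2 and 4 h in the low range it was 0.65 log2 and called, and over fed 12 h in the high range 0.54 log2 (adjusted p = 0.0669). The second Il4ra probe set, 161192_at, was too dim to be tested and its groups overlapped. It was 91.3 to 183 in late CR, 114 to 196 in fed 0 h and 60.1 to 270 in fed 2 to 12 h lungs.

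Both chains of the IL-6 receptor rose over fed 0 h. Il6ra, the ligand-binding chain, was 628 and 1069 at CR 24 h, 1224 and 1268 at CR 48 h, 1281 and 1284 at CR 72 h and 1029 and 968 at CR 96 h. Fed 0 h lungs had 422, 505, 768 and 897, and fed 2 to 12 h lungs 433 to 829 (median 559). All late CR arrays except the one of 628 lay above all 10 fed arrays. The log2 changes were 0.79 over fed 0 h (0.30 to 1.28, adjusted p = 0.028) and 0.94 over fed 2, 4 and 12 h (0.51 to 1.38, adjusted p = 0.0084). Il6st, which encodes the shared signal chain gp130, was 4070 to 5056 in late CR (median 4456), 2373, 2131, 3772 and 3829 in fed 0 h and 2971 to 3961 in fed 2 to 12 h lungs (median 3587) on probe set 94345_at. All 8 late CR arrays lay above all 10 fed arrays. Its log2 changes were 0.62 over fed 0 h (0.31 to 0.93, adjusted p = 0.00944) and 0.36 over fed 2, 4 and 12 h (adjusted p = 0.121). The second tested Il6st probe set, 98349_at, gave 0.20 and 0.20 and was not called.

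The increases of Il6ra and Il6st over fed 0 h rested on the arrays numbered 1. Against number 1 alone both were called, with 1.21 log2 for Il6ra, while against number 2 alone the changes were 0.37 for Il6ra and 0.24 for Il6st and neither was called. Within the signal ranges, Il6ra was 1.13 log2 over fed 0 h in the high range and 0.45 log2 in the low range (adjusted p = 0.339 there). Il6st was called in the high range (adjusted p = 7.09e-06) and was 0.24 log2 in the low range (adjusted p = 0.277). Over fed 2 and 4 h in the low range Il6ra was 1.08 log2 and called, and over fed 12 h in the high range it was 0.75 log2 (adjusted p = 0.125).

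Il18r1, a chain of the IL-18 receptor, was 848 to 1282 in late CR (median 1083), 862, 987, 1317 and 1445 in fed 0 h and 680.1 to 895 in fed 2 to 12 h lungs (median 761). It rose over fed 2, 4 and 12 h by 0.46 log2 (0.20 to 0.72, adjusted p = 0.0328) and gave -0.11 over fed 0 h. The call was lost without any 1 of 11 arrays. Within the ranges it was 0.69 log2 over fed 12 h and called, and 0.28 log2 over fed 2 and 4 h (adjusted p = 0.168). It was -0.53 log2 over fed 0 h in the low range and called (adjusted p = 0.0312). Il17ra, the common IL-17 receptor chain, was 257 to 585 in late CR (median 361), 257 to 413 in fed 0 h and 395 to 605 in fed 2 to 12 h lungs (median 505) on probe set 99991_at. It fell over fed 2, 4 and 12 h by 0.49 on the log2 scale (adjusted p = 0.0481), but its second probe set, 99992_at, gave -0.25 and was not called, and neither probe set was called within a range. Of the 16 tested probe sets of interleukin receptors and binding proteins, 3 rose and 0 fell over fed 0 h in limma. On the whole array 9.85% of probe sets rose and 8.24% fell. Il13ra1 and Il15ra, chains of the IL-13 and IL-15 receptors, had unadjusted p under 0.05 with log2 changes of -0.37 and -0.47 (adjusted p = 0.134 and 0.0793). Il10rb, a chain of the IL-10 receptor, gave -0.20 over fed 0 h (adjusted p = 0.166). Il1r2, the decoy receptor of IL-1, was 358 and 453 at CR 96 h against 123 to 250.3 in fed 0 h lungs, a log2 change of 1.29 (adjusted p = 0.0963). This probe set, 102658_at, reached the array median on 2 arrays, those of CR 96 h. It was thus tested only through the group in which it was high.

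RefSeq promoters of build GRCm38.p6 are shown for Il4ra, Il6ra and Il6st, which rose together over fed 0 h, and for Ccr2, the member with the smallest p. Of the 87 member genes, 69 had at least 1 promoter in the table, 83 in all. Each window runs from 250 bases before to 50 after the annotated start, 5' to 3' on the gene's strand, and capitals mark matches on either strand to the motifs named below it.
Ccr2 (chr9:124101933-124102232, plus strand): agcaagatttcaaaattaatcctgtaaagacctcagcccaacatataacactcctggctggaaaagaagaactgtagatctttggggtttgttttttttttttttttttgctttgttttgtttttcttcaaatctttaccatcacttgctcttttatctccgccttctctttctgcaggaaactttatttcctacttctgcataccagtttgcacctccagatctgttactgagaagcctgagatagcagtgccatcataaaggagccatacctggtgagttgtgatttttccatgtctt
Il4ra (chr7:125552021-125552320, plus strand): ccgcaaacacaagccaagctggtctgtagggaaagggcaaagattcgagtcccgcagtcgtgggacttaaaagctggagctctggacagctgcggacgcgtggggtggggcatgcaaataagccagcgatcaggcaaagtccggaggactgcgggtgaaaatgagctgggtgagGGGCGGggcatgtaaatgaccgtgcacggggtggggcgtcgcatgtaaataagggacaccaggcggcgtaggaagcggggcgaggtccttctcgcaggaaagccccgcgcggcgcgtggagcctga
Il6ra (chr3:89913147-89913446, minus strand): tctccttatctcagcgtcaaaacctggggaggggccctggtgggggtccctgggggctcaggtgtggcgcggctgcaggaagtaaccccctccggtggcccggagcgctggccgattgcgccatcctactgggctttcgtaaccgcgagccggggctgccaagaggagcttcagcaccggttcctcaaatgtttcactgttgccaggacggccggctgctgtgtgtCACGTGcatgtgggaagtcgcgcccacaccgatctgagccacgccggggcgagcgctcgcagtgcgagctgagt
Il6st (chr13:112463820-112464119, plus strand): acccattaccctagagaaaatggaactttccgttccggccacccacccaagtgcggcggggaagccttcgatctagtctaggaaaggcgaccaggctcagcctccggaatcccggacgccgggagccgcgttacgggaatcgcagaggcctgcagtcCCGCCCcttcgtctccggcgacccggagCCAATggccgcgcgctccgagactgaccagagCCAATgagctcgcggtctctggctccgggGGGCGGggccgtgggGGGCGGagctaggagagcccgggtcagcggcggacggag

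The motifs searched on both strands were the TATA box, spelled TATAAA, the CCAAT box and the GC box, spelled GGGCGG. The letters of a STAT site, TTCNNNGAA, were searched as well, as was the half-site of the glucocorticoid response element, TGTTCT. The E-box, CACGTG, was added after these sequences had been seen. No matches overlapped in the windows shown. Il4ra held 1 GC box, 76 bases before the start, and Il6ra held 1 E-box 24 bases before it. Il6st held CCAAT boxes at 65 and 33 bases before the start and GC boxes at 93 and 4 bases before and 12 after it. The Ccr2 window held none of these letters. Of all 32851 promoters of this length in the table, 13.6% held the TATA box, 37.4% the CCAAT box and 35.7% the GC box. The STAT letters were in 8.3%, the half-site in 19% and the E-box in 7.15%. Of the 83 member promoters, 22.9% held the TATA box, 33.7% the CCAAT box, 24.1% the GC box, 14.5% the STAT letters, 15.7% the half-site and 2.41% the E-box. A match is a match of letters only.

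Among the growth factors, Csf3, which encodes G-CSF, the driver of neutrophil production, was 110 and 97.5 at CR 24 h, 75.8 and 85.0 at CR 48 h, 325 and 381 at CR 72 h and 146 and 68.1 at CR 96 h. It was 524, 454, 612 and 188 in fed 0 h lungs, and 204 to 400.2 with a median of 238 in fed 2 to 12 h lungs. The CR arrays of 24, 48 and 96 h lay below all 10 fed arrays, while both arrays of 72 h lay inside the fed range. Late CR averaged 161 ± 122 and fed 0 h lungs 445 ± 183 (SD, n = 8 and n = 4), a log2 change of -1.60 (-2.27 to -0.93, adjusted p = 0.00277). The change over fed 2, 4 and 12 h was -0.96 log2 (-1.55 to -0.38, adjusted p = 0.047). In the high signal range, CR 24 and 48 h over fed 0 h number 1 gave -2.40 log2, and in the low range CR 72 and 96 h over number 2 gave -0.80 log2 (adjusted p = 0.269). Over fed 12 h in the high range it was -1.58 log2 (adjusted p = 0.0383), and over fed 2 and 4 h in the low range -0.39 log2 (adjusted p = 0.563). Of the 8 tested neutrophil markers, Lcn2 rose and Camp fell over fed 0 h, and Csf3r, the receptor of G-CSF, gave 0.22 log2 (adjusted p = 0.435). Csf1, the macrophage growth factor, gave 0.03 over fed 0 h and -0.35 over fed 2, 4 and 12 h and was not called.

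Interleukins themselves were mostly dim. Of 24 probe sets for 21 genes, 4 were tested and 15 lay below the floor on at least 12 arrays. None of the 4 was called in a pooled late comparison. Il16, a CD4 ligand, gave 0.09 over fed 0 h and -0.49 over fed 2, 4 and 12 h (adjusted p = 0.143 for the second), and Il9 gave -0.29 and -0.19. Il1rn, the IL-1 receptor antagonist, gave 0.09 and -0.68 (adjusted p = 0.16). Over fed 0 h it was -1.07 log2 in the high range and 1.24 log2 in the low range, both past the threshold. Il18, an activator of interferon gamma production, gave -0.36 and -0.43. Several inflammatory cytokines were mostly at the lower limit: Il6 was below the floor on 22 of 24 arrays, Ifng on 22, Tnf on 21, Ccl2 on 20 and Csf2 on 14. Il1b was below it on 10 arrays and varied widely, with 274 and 283 at CR 2 h against 225 and 84.2 in fed 2 h lungs. It was 257 and 267 on the fed 0 h arrays numbered 1 and 66.0 and 39.7 on those numbered 2. Differences of these genes below the floor could not be seen with these arrays. Tnf was 153, 122, 41.7 and 81.9 in fed 0 h lungs. It was under the floor on all 8 late CR arrays, but also on all early CR arrays and all fed 2 to 12 h arrays (31.4 to 47.3).

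With all 12422 probe sets tested and no filter, 3 dim members were called somewhere. In late CR, 1011 of all probe sets were called over fed 0 h and 427 over fed 2, 4 and 12 h, with 1 dim member each. At CR 24 h 196 were, with 1 dim member, and at CR 96 h 378, with 2. Over the 11 groups 594 were, with 1 dim member. These counts are no result about the dim members as a set. Il1a was 38.4 to 175 in late CR, 302, 237, 291 and 160.0 in fed 0 h and 169.9 to 279 in fed 2 to 12 h lungs, and 7 of 8 late CR arrays lay below all fed arrays. It fell by 0.95 over fed 0 h (adjusted p = 0.0078) and by 0.82 over fed 2, 4 and 12 h on the log2 scale (adjusted p = 0.0133). Cxcl13, the B cell attractant, was 259.9 and 213 at CR 96 h against 117, 41.5, 19.1 and 109 in fed 0 h lungs, a log2 change of 1.30 (adjusted p = 0.0327). The second Il1r2 probe set, 161689_f_at, was 264 and 301 at CR 96 h against 53.3 to 146 in fed 0 h lungs, a log2 change of 1.42 (adjusted p = 0.031). These 3 were named after their values were seen, apart from Il1r2.

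At single late times, 2 members were called at 24 h (Il4ra higher, Csf3 lower), beside 2.82% of all probe sets. At 48 h 4 were (Il4ra higher, Ccr2, Csf3 and Cxcl12 160511_at lower), beside 5.44%. At 72 h 2 were (Il4ra higher, Ccr2 lower), beside 5.82%, and at 96 h 3 were (Il4ra higher, Ccr2 and Csf3 lower), beside 6.49%. Il4ra gave 0.80, 0.69, 0.76 and 0.94 log2 at 24, 48, 72 and 96 h, with adjusted p of 0.0208, 0.0319, 0.0175 and 0.00322. Ccr2 gave -0.54, -1.11, -1.24 and -1.63 log2, with adjusted p of 0.193, 0.00954, 0.00345 and 0.000188. Csf3 gave -1.98, -2.30, -0.21 and -1.91 log2, with adjusted p of 0.0222, 0.00584, 0.804 and 0.0159, and 1 of the 2 arrays at 48 h and at 96 h lay under the floor. A moderated F test among the 4 late times called no member, beside 0.578% of all probe sets. The smallest adjusted p were 0.159 for Csf3 and 0.205 for Ccr2, so neither the return of Csf3 at 72 h nor the order of the Ccr2 values was past the threshold. At an unadjusted p under 0.05 this test held 8 members. The share of all probe sets under that unadjusted threshold was not computed, so this count is no result about the members.

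**Figure D3:**
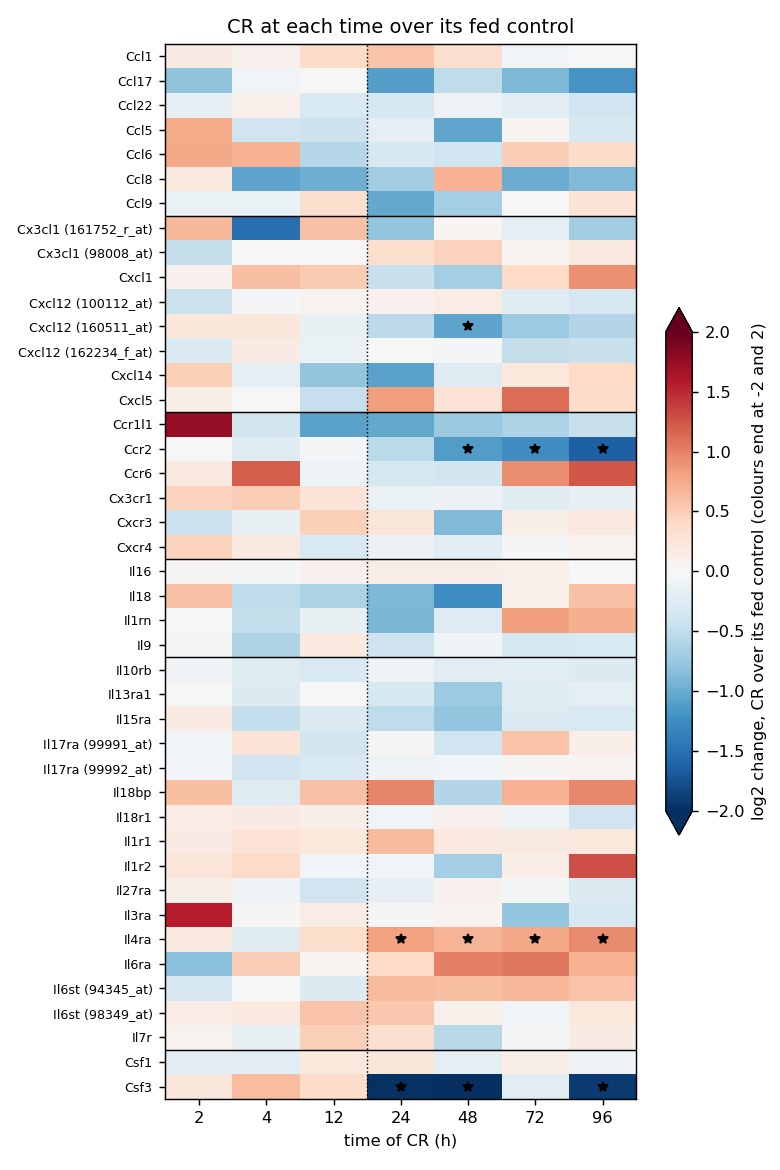
Log2 change of CR over its fed control (the same hour at 2, 4 and 12 h, fed 0 h at 24 to 96 h; dotted line between them) for the 43 tested probe sets in blocks by role, red higher and blue lower in CR, stars at an adjusted p under 0.05. Stars stand only at 24 h and later, on Il4ra at every late time, on Ccr2 from 48 h, on Csf3 at 24, 48 and 96 h and on Cxcl12 (160511_at) at 48 h.

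In the first 12 h no member was called. The mean of CR 2, 4 and 12 h over fed lungs of the same hour called 0 of 43 members and 0.0269% of all probe sets in limma, and 1 member (Il10rb, -0.21 log2) had an unadjusted p under 0.05. At 2 h and 4 h alone 0% of all probe sets were called and at 12 h 0.148%, with 0 members each, and 3, 0 and 1 members had an unadjusted p under 0.05. The F test among the early effects called 0% of probe sets. Its smallest p among members was 0.0379 unadjusted, for Ccr1l1, which was 303 and 350.2 at CR 2 h against 118 and 68.2 in fed 2 h lungs. Fed 12 h over fed 0 h called 0 members beside 1.92% of all probe sets, and 3 had an unadjusted p under 0.05: Ccr2, Cxcl5 (-0.91 log2) and Il18r1 (-0.67 log2, adjusted p = 0.0824). For none of these comparisons was the share of all probe sets under the unadjusted threshold computed. The unadjusted counts are therefore no result about the members.

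Over all 11 groups, the moderated F test called 7 of 43 members, beside 9.26% of all probe sets. They were Ccr2 (adjusted p = 7.56e-05), Cxcl5 (0.00237), Il4ra (0.0115), Csf3 (0.0144), Il17ra on 99991_at (0.0296), Il6ra (0.0328) and Cxcl14 (0.042).

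Genes of cytokine signalling outside the module gave a different count over each set of controls. Of 51 tested genes of this list, 16 rose and 2 fell (Ltb and Ackr4) over fed 0 h, with a median log2 change of 0.28, beside 9.85% higher and 8.24% lower on the whole array. Of the same 51 genes, 12 were lower and 2 higher in fed 0 h number 1 than in number 2, where 39.9% of all tested probe sets differed. In the comparison with fed 2, 4 and 12 h, 2 rose and 1 fell (Ackr4), with a median of 0.01, beside 3.62% higher and 2.73% lower on the whole array. Nfkbia, which encodes the NF-kappaB inhibitor IkappaB-alpha, averaged 7431 ± 1052 in late CR (SD, n = 8), 3169 ± 366 in fed 0 h (SD, n = 4) and 3612 ± 809 in fed 2 to 12 h lungs (SD, n = 6). It rose by 1.22 log2 over fed 0 h (adjusted p = 7.41e-07) and by 1.06 log2 over fed 2, 4 and 12 h (adjusted p = 8.89e-07). Zfp36, whose protein tristetraprolin speeds the decay of cytokine mRNAs, rose by 0.98 and 0.71 log2 (adjusted p = 0.0016 and 0.00951). Ackr2, a decoy receptor of CC chemokines, rose over fed 0 h by 0.70 log2 (adjusted p = 0.00214), and Arrb1, a beta-arrestin, by 1.14 log2 (adjusted p = 0.00798), while their changes over fed 2, 4 and 12 h were 0.11 and 0.51 and not called. Arrb1 and Zfp36 were also lower in fed 0 h number 1 than in number 2, by 1.49 and 0.82 on the log2 scale.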

How the data were processed

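Lung RNA on 24 one-colour Affymetrix MG-U74Av2 arrays was analysed, grouped by diet and time from the labels. Intensities as deposited were linear, 1 per probe set, and had been scaled to 1 trimmed mean, as the values themselves show; no source used here names the software. MAS5 is named in the submitters' processing notes for 1 further array, of another platform. Its title and description give different treatments, so it is in no group.

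After 66 of 12488 probe sets, controls of the array, were removed, the arrays were brought to a common median. Values under the 25th percentile of all values (80.4) were set to it before log2 was taken. This floor compresses changes of dim probe sets. Names came from the platform annotation (10833 probe sets with 1 symbol, 396 with several, 1193 with none), updated by Entrez identifier to GRCm38.p6. In R 4.3.3, limma 3.58.1 estimated 11 group means from all 24 arrays (13 residual degrees of freedom, intensity trend). Tests were two-sided, and called probe sets had a p under 0.05 after Benjamini-Hochberg adjustment over 7440. Folds are ratios of geometric means, and levels are arithmetic means with the SD. Early times were compared with fed lungs of the same hour, late times with fed 0 h or with the mean of fed 2, 4 and 12 h.

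The members and gene lists were chosen with earlier results of these data known. Named with values were members called in a comparison, up to 8 by smallest p in each F test, the 3 of highest mean signal in each role, and 12 fixed genes (Ccr2, Csf3, Il6, Il1b, Tnf, Ifng, Ccl2, Cxcl1, Cxcl12, Cxcl15, Il1r2, Il6ra; Cxcl15 had no member probe set and was not analysed here), and up to 4 genes of a list. Other names were chosen after their values were seen. Letters a and b were not treated as pairs: differences between a and b correlated at -0.19 to 0.123 between groups (median 0.0141). The alternatives tried changed the scaling, the floor, the filter, the trend, the weights, the groups in the fit, the treatment of letters (block or averaged) and the controls, or left out 1 array. The separate fed 12 h and fed 2 and 4 h controls and the comparisons within a signal range were added after the data were seen. On simulated data with 200 of 7440 probe sets changed, the late comparison over fed 0 h found 16 of 67 that had been moved by 0.5 log2, 46 of 67 moved by 1 and 62 of 66 moved by 2. It also called 8 of 7240 unchanged ones. These counts describe only the simulated data and give no rate of missed or false calls in the lungs. In the lungs 733 probe sets rose and 613 fell in the same comparison. The fed 0 h lungs numbered 1 and 2 also differed at 39.9% of all tested probe sets. The number of arrays limits the precision of every value.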

Additional observations from a re-analysis of the deposited data

Results flagged for a closer look

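Of 39 named probe sets examined in the 4 fed 0 h arrays, 2 had 1 array far from the others. Cxcl1 on 95348_at was 353.3 on array 1a, where the other 3 arrays were 110.2 to 144.4. Cxcl12 on 160511_at was 629.7 on the same array, where the others were 418 to 446.8. The gap took 0.859 and 0.864 of the range of the 4 arrays, past the 95% limit of Dixon's ratio, which chance passes in about 1 in 20 groups. Without array 1a the Cxcl12 change over fed 0 h was not called.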

How the results depend on the processing

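Under the alternative settings and left-out arrays, no called late change of a member became a called change of the other sign. The comparisons within a signal range, given in the report, did hold called changes of opposite sign over fed 0 h for 5 member probe sets, none of them called over fed 0 h with the ranges pooled. Most other counts of called members stayed within 1.5 times: 107 over alternative settings and 315 over left-out arrays, many of them counts of 0. The exceptions follow, and their cause was not tested unless stated. Counts here and with arrays left out stand without the share of all probe sets. They show how calls moved and are no result about the members. Against fed 0 h number 1 alone, 20 members were called in late CR, 6 in fed 12 h, and 17, 16, 12 and 9 at CR 24, 48, 72 and 96 h. Against number 2 alone the counts were 4 in fed 12 h and 1, 2, 4 and 6 at the same CR times. Within the high range, 46% of all tested probe sets differed between CR 24 and 48 h and number 1. Within the low range, 10.7% differed between CR 72 and 96 h and number 2. A block for the signal range gave 19 members in late CR over fed 2, 4 and 12 h, 2 in early CR, 7 in fed 12 h and 19 over the 11 groups. Array quality weights gave 2 members in late CR over fed 0 h, 15 over fed 2, 4 and 12 h, 0 at CR 24 h, 2 at CR 48 h, 14 over the 11 groups, 4 among the late times and 2 between the fed 0 h numbers. With only the compared groups in the fit, which leaves fewer arrays to estimate the spread, 3 members were called in late CR over fed 0 h and 0 at each of CR 24, 48, 72 and 96 h. With letters averaged, which leaves 1 value for most groups, 0 were called over fed 0 h and 4 over fed 2, 4 and 12 h. Fed 12 h alone as control left 1 (Cxcl5), and no filter gave 5 at CR 96 h. The letter as a replicate block left 6 members over fed 0 h and 8 over fed 2, 4 and 12 h, where Il17ra was lost. It changed no other count by over 1.5 times, and the letters share only a name.

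With single arrays left out, counts were 3 to 7 in late CR over fed 0 h (3 without fed 0 h 1a or 1b), 4 to 10 over fed 2, 4 and 12 h (4 or 5 without any 1 of 15 arrays, which were all those of CR 4, 12 and 72 h and of fed 2, 4 and 12 h, with CR 24 h 1a, CR 48 h 1b and CR 96 h 1b), 0 to 1 in fed 12 h, 0 to 6, 0 to 9, 0 to 4 and 1 to 5 at CR 24, 48, 72 and 96 h, 4 to 11 over the 11 groups, 0 to 1 among the late times and 10 to 18 between the fed 0 h numbers. The highest counts at CR 24, 48 and 96 h came without fed 0 h 2a, and at CR 72 h without 2a or 2b. A time with 1 array left was assumed to vary like the others. Members near or under the floor could show no change.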

Other observations

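The array of the other platform, which the labels put in no group, held 199 probe sets for 126 genes by the same symbol rule, and 84 of them reached the array median of 96.1. Its deposited signal was 4363 and 4116 on the probe sets of Cxcl15, a chemokine of lung epithelium, and 412 for Ccr2 on 1460067_at. As a single array it entered no comparison.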
